A study of Homo sapiens with 6 samples.

Results

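The 47 genes described here encode the machinery that copies chromosomal DNA, from the proteins that mark replication origins to the polymerases, the sliding clamp and the factors that repack new DNA into chromatin. They were chosen by name, as all array probes whose annotated symbol was exactly 1 of the 47. This gave 74 probes of the 47322 on the array and 47 of its 20046 named genes. The 47 genes, and the lists set beside them below, were chosen with earlier results of these data known. Shares of all genes given beside them are therefore a description and not a test. Expression was measured on 6 Illumina bead arrays of KG1a cells, an established human acute myeloid leukaemia line of immature cells. The 3 control arrays are of KG1a cells for which the labels give no agent or time, and the 3 arrays of the 7l group are of KG1a cells exposed for 24 h to 2 µM of 7l, an agent given by code name alone. All cells were grown in RPMI medium with heat-inactivated fetal bovine serum. Nothing in the labels tells whether replicates are separate cultures, so the spread behind each p-value may be technical. The description in the labels gives all control arrays 1 replicate number and all 7l arrays another. What that number stands for is not said, and it cannot be told apart from the group. Replicate numbers used here are those of the titles.

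In G1 phase the origin recognition complex (ORC) and the licensing factors CDC6 and CDT1 load the ring of MCM2 to MCM7, the replicative helicase, onto DNA. At the start of S phase the kinase CDC7 with DBF4, together with CDC45, the GINS complex and MCM10, turns the loaded ring into an active helicase. Polymerase alpha with primase then starts each strand, the RFC complex loads the PCNA clamp, and polymerases delta and epsilon extend the strands. Many of these genes are transcribed in a wave at the passage from G1 to S phase under the control of E2F factors, and proliferating leukaemia cells express them at high levels.

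The median intensity was 4.95 on every array, and between 32.7% and 34.2% of probes sat at the lowest value of 1. Of the immature blood cell markers, CD34 lay at 11.14 or above and CD44 at 10.76 or above on every array (log2 intensity). The background, set from olfactory receptor, taste receptor and keratin-associated protein probes, was 2.46. Whether these genes are silent in KG1a cells was not tested. SPN (8.56 to 8.82), RUNX1 (7.24 to 7.59) and PTPRC (5.41 to 6.04) were dimmer. CD34 changed by -0.23 ± 0.08 (SE) and did not pass (limma adjusted p = 0.185), and group means of its further probes ran from 1.84 to 10.73. MYB, a transcription factor of blood progenitors, fell 1.41-fold and was the 1 called gene of 6 such markers, a call lost with every probe fitted on its own (limma adjusted p = 0.0934). Among 6 markers of other cell types, KRT19 and COL1A2 were too dim to be tested and EPCAM lay between 1.43 and 3.27, while ALB (3.82 to 4.49) and COL1A1 (2.81 to 3.85) were dim but above 2.46 on every array. PECAM1, which endothelial cells and leukocytes share, measured 6.91 to 6.99 in control and 6.04 to 6.46 in 7l arrays (adjusted p = 0.0731). With 3 arrays a group, precision is limited throughout.

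With 7l, 4 of the 47 replication genes fell and 0 rose. They were MCM7 and MCM5, which encode parts of the replicative helicase, GINS2, a subunit of the helicase activator, and PCNA, the sliding clamp, each lower by 1.35-fold to 1.51-fold. The test was limma over 12334 genes, and a call needs a Benjamini-Hochberg adjusted p below 0.05 over all of them. The 4 genes are 8.51% of the 47, where 1.16% of all genes tested were called lower and 1.22% called higher. All 47 genes passed the filter on dim genes. In bulk samples such as these, fewer cells in S phase and less RNA per cell cannot be told apart.

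MCM7 measured 10.06, 9.94 and 10.02 in the control arrays and 9.43, 9.39 and 9.42 in the 7l arrays (log2 intensity). Every 7l array thus lay more than the whole spread of the controls below the lowest control array. Its log2 change was -0.60 ± 0.07 (SE; limma adjusted p = 0.0269), with a 95% interval from -0.77 to -0.43. MCM5 measured 8.79, 8.92 and 8.80 in control and 8.13, 8.28 and 8.33 in 7l arrays, a change of -0.59 ± 0.09 (SE; limma adjusted p = 0.0424). GINS2 measured 10.23, 10.15 and 10.27 in control and 9.75, 9.63 and 9.69 in 7l arrays, a change of -0.53 ± 0.07 (SE; limma adjusted p = 0.0389). For both genes the groups were separated by a gap wider than the range within either group. PCNA measured 9.89, 9.91 and 9.89 in control and 9.46, 9.52 and 9.40 in 7l arrays, a change of -0.44 ± 0.07 (SE; limma adjusted p = 0.0444). The control arrays of PCNA were almost level, and all 7l arrays lay below them.

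**Figure D1:**
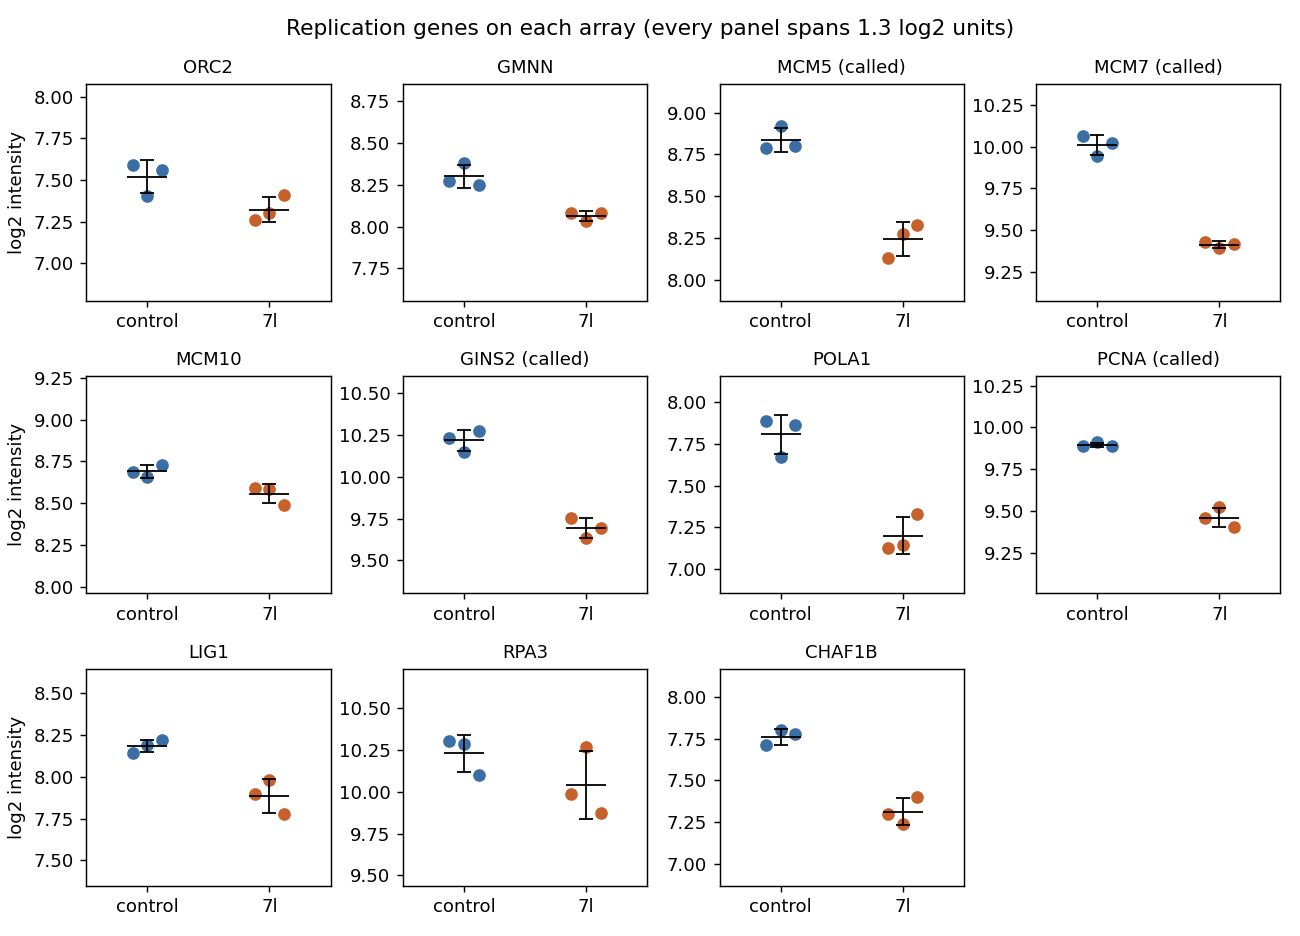
Log2 intensity of 11 replication genes on each array (points), with the group mean (bar) and SD (error bar, n = 3); every panel spans the same range. The genes are the 4 called ones and the gene with the largest moderated t in each role. In all panels but those of ORC2 and RPA3, the 3 arrays of the 7l group lie below the 3 control arrays.

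The calls rest on the full set of arrays, on the probe rule and on the prior of the variance. Without any 1 array, 0 members were called by limma, with 17 to 19 lower and 0 higher at an unadjusted p under 0.05, while the changes of the 4 genes kept to -0.63 to -0.57 for MCM7, -0.63 to -0.53 for MCM5, -0.56 to -0.50 for GINS2 and -0.47 to -0.41 for PCNA. With the probes of each gene averaged, MCM5 and GINS2 kept their call (limma adjusted p = 0.0490 and 0.0482), and MCM7 and PCNA lost it (0.285 and 0.577). With every probe fitted on its own all 4 lost it, at 0.0623 for MCM7, 0.0842 for GINS2, 0.0863 for MCM5 and 0.102 for PCNA. With a trended and robust prior, 22 of the 47 were called lower (46.8%, where 6.59% of all genes were) and 0 were called higher (7.21% of all genes).

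The promoters of the called genes are shown because these genes fell together, beside those of MCM8 and RFC5, the members whose change on the probe used was closest to 0. The RefSeq promoter table (GRCh38.p14) held 41 of the 47 genes, among them MCM7, GINS2 and PCNA but not MCM4, MCM5, GINS4, POLD3, RPA2 or RPA3. Each stretch covers the 250 bases before the annotated start, written 5′ to 3′ on the strand of the gene, with capitals for E2F cores and CCAAT boxes. These are MCM7 (chr7:100101398-100101647, minus strand), GINS2 (chr16:85688955-85689204, minus strand), PCNA (chr20:5126623-5126872, minus strand), MCM8 (chr20:5950402-5950651, plus strand) and RFC5 (chr12:118016453-118016702, plus strand).
MCM7: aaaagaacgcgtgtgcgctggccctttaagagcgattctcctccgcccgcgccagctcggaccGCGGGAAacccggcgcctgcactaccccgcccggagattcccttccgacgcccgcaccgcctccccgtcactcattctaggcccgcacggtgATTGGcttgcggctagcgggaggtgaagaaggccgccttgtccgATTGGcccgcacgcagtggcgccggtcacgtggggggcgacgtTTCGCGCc
GINS2: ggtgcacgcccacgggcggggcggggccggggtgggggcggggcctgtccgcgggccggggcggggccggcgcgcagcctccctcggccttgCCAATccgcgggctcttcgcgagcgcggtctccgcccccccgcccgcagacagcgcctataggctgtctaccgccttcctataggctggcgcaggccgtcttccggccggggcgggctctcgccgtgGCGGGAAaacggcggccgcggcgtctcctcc
PCNA: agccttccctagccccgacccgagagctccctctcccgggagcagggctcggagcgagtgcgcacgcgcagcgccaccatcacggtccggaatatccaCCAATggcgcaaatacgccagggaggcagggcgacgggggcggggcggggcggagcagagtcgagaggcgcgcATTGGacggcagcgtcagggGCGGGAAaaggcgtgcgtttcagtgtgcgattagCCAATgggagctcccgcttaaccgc
MCM8: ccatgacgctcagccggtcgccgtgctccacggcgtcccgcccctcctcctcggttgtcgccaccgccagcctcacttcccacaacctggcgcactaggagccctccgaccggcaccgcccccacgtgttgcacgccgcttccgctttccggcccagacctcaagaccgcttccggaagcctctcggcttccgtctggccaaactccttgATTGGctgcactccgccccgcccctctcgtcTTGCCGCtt
RFC5: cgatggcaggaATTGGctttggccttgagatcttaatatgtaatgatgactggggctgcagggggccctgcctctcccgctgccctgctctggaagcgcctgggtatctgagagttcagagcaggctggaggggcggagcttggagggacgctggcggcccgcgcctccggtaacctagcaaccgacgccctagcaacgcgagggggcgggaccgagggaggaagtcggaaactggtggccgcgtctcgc
The E2F core was searched for in 4 forms. The first form is TTCGCGC and the second form is TTGGCGC. The third form is TTCCCGC and the fourth form is TTGCCGC. Both these and the CCAAT box, the site of the factor NF-Y, were searched on either strand, over windows of 250 bases before to 50 after the start.

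At least 1 E2F core stood in 29 of the 41 windows (70.7%), against 13.1% of all 27305 promoters in the table and 19.6% of the windows held for 9789 of the 12334 genes tested. The median share of G and C was 65.7% in the 41 windows, 58.3% in all promoters and 64.3% in those of the genes tested. MCM7 holds cores that begin 187 and 8 bases before the start. A further match, TTGGCGC on the opposite strand, begins 5 bases before the start and runs past the end of the printed stretch. It overlaps the core at 8 bases, with which it was counted as 1, and a CCAAT box across the start. GINS2 has its core 31 bases and PCNA 59 bases before the start, both as TTCCCGC on the opposite strand. MCM8 and RFC5 hold cores too, in RFC5 16 bases after the start and so outside the stretch shown. The 29 genes with a core had a median log2 change of -0.27 (-0.80 to 0.75) and the 12 without one of -0.18 (-1.27 to 0.97). The ends of these ranges are the dim genes CDC6, GINS1, ORC4 and DBF4. Leaving these aside, changes ran from -0.66 (MCM2) to 0.02 (RFC5) with a core and from -0.46 (CDC45) to 0.14 (ORC5) without. The 7l arrays lay below all control arrays in 20 of the 29 (69%) and in 5 of the 12 (41.7%). The difference between the 29 and the 12 was not tested. CCAAT boxes stood in 56.1% of the 41 windows and 35.7% of all promoters. A match is a run of letters in a window and not evidence of binding.

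Across the whole group the shift was small and mostly downward. Of the 47 genes 40 had a negative log2 change, where 48.9% of all genes tested did, and the median change was -0.25 against 0.01 over all genes. In 28 of the 47 (59.6%) the 3 arrays of the 7l group lay below all 3 control arrays, which held for 13.8% of all genes tested, and in 0 of the 47 did they lie above, which held for 15.1%. At an unadjusted p under 0.05, 23 members were lower and 0 higher, against 9.72% and 10.8% of all genes. Leaving aside the 4 dim genes ORC4, CDC6, GINS1 and DBF4, 38 of 43 changes were negative, from -0.66 to 0.14.

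**Figure D2:**
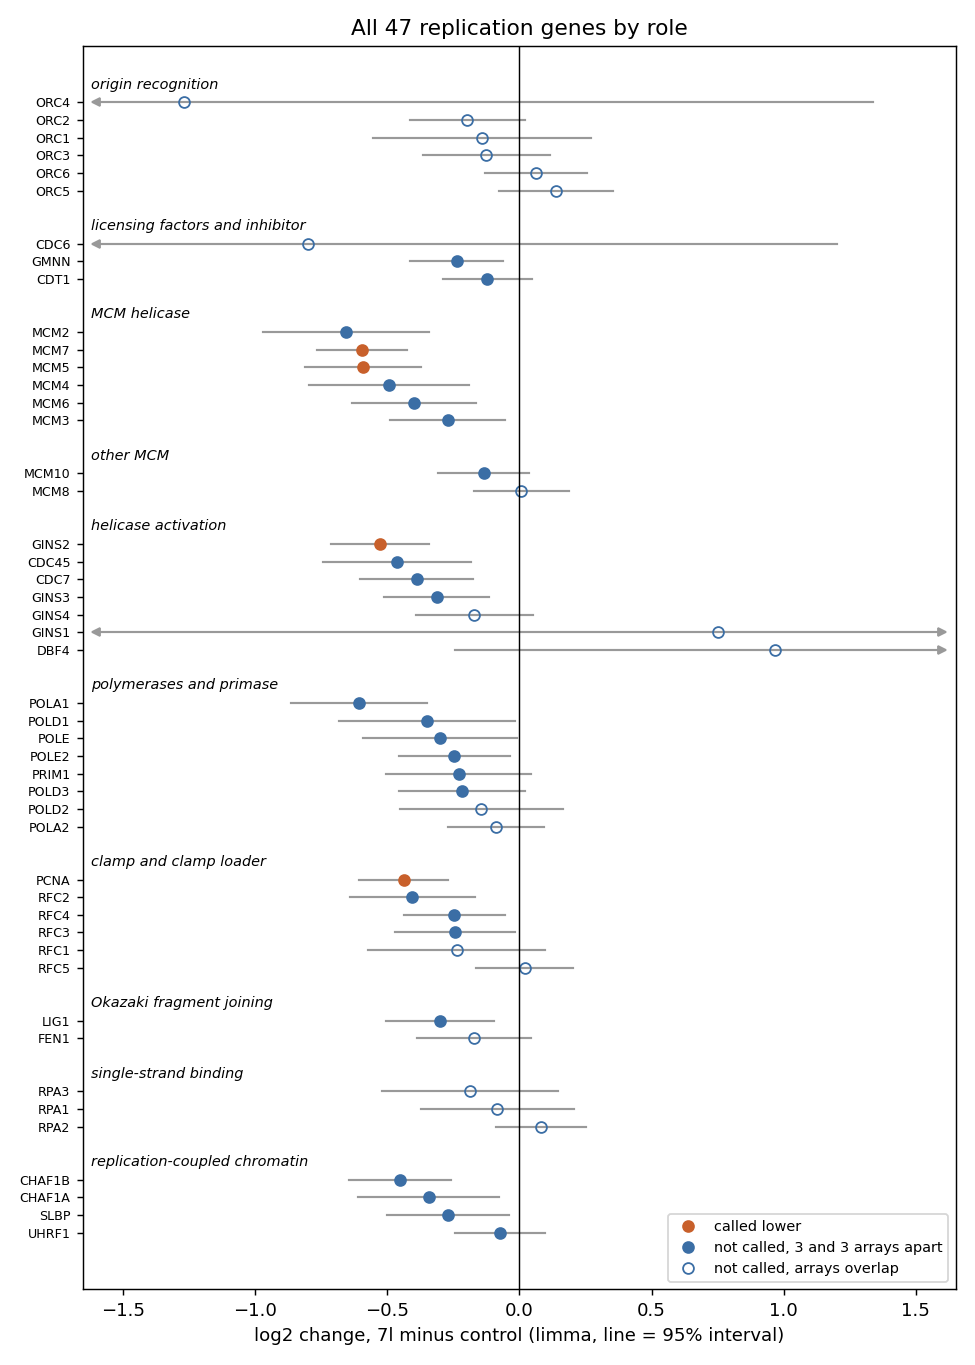
Log2 change (7l minus control) of each of the 47 genes with its 95% limma interval, grouped by role; arrowheads mark intervals that run past the axis. Filled points are genes whose 3 and 3 arrays do not overlap, orange points the 4 called genes, and all filled points lie below 0.

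The 6 genes of the helicase core were all lower with 7l. MCM2 to MCM7 had 7l arrays below all control arrays, with log2 changes from -0.66 to -0.27 and a median of -0.54, of which MCM5 and MCM7 passed the test. MCM2 had the largest change of the ring, from 9.62, 9.73 and 9.35 in control to 8.98, 8.94 and 8.81 in 7l arrays (-0.66 ± 0.12, SE; limma adjusted p = 0.0698). Its control arrays were spread more widely than those of MCM7. MCM2 was called when genes under the background level were left out (limma adjusted p = 0.0492). It was not called with every probe fitted on its own (limma adjusted p = 0.122). MCM4 measured 10.90, 11.18 and 11.02 in control and 10.71, 10.46 and 10.45 in 7l arrays (-0.49 ± 0.12, SE; limma adjusted p = 0.107). MCM6 measured -0.40 ± 0.09 and MCM3 -0.27 ± 0.09 on the log2 scale, and neither passed. With the trended and robust prior all 6 were called lower.

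Other probes of the helicase genes gave changes of the same sign. A second MCM7 probe measured 5.48, 5.27 and 5.58 in control and 4.47, 4.54 and 4.55 in 7l arrays, a change of -0.92 (adjusted p = 0.0515 by limma over all probes above the filter). A second MCM3 probe measured -0.51 and a second MCM4 probe -0.45 on the log2 scale, with all 7l arrays below all control arrays in both. The third MCM7 probe was at or under background on every array. Of the MCM genes outside the ring, MCM8, a helicase of homologous recombination, measured 0.01 ± 0.07 with an interval from -0.17 to 0.19, and MCM10, which helps to fire origins, -0.14 ± 0.07.

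None of the 6 ORC genes was called by limma, with 0 at an unadjusted p under 0.05 and 0 with the trended and robust prior. In all 6 the arrays of the groups overlapped on the probe used. ORC2, the ORC gene with the largest moderated t, measured 7.59, 7.41 and 7.56 in control and 7.26, 7.30 and 7.41 in 7l arrays. Its lowest control array and highest 7l array were level, with a change of -0.20 ± 0.09 (SE; limma adjusted p = 0.285). ORC1, the ORC subunit whose level varies with the cell cycle, measured -0.14 ± 0.16, ORC3 -0.12 ± 0.09, ORC5 0.14 ± 0.09 and ORC6 0.06 ± 0.08. The intervals of ORC3, ORC5 and ORC6 ran from -0.36 to 0.12, from -0.08 to 0.36 and from -0.13 to 0.26. On the probes used, log2 changes of the size measured for MCM7 lie outside them. The ORC6 probe read 8672 to 9870, where the highest intensity on the arrays was 10984, so its changes may be compressed. A second ORC5 probe, near background, measured -0.33, and a second ORC6 probe measured 0.31. ORC4 was dim, with 3.93, 3.60 and 1.97 in control and 2.25, 0.00 and 3.44 in 7l arrays, and 3 of these 6 values were at or under background. No direction can be read for it (interval from -3.88 to 1.34).

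The licensing factors were measured unevenly. CDT1, which brings the MCM ring to origins, measured 9.25, 9.32 and 9.25 in control and 9.11, 9.19 and 9.16 in 7l arrays. GMNN, encoding geminin, the inhibitor of CDT1, measured 8.27, 8.38 and 8.25 in control and 8.08, 8.03 and 8.08 in 7l arrays. In both genes the groups did not overlap but lay close, and neither passed, at -0.12 ± 0.07 for CDT1 and -0.24 ± 0.07 for GMNN (limma adjusted p = 0.380 and 0.154). CDC6, the ATPase that works with ORC, lay near background, at 3.38, 3.32 and 3.77 in control and 4.05, 3.01 and 1.02 in 7l arrays. Its change of -0.80 ± 0.79 turned to 0.04 without 7l array 3.

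Among the genes that activate the helicase, GINS2 fell and 3 further genes had 7l arrays below all control arrays without passing. CDC45, the helicase cofactor, measured 10.22, 10.22 and 10.26 in control and 9.88, 9.87 and 9.56 in 7l arrays (-0.46 ± 0.11, SE; limma adjusted p = 0.104). Array 3 of the 7l group was the lowest there. CDC7, the kinase that triggers firing, measured -0.39 ± 0.08 and GINS3 -0.31 ± 0.08, whereas GINS4 measured -0.17 ± 0.09 with overlapping groups. CDC7, CDC45, GINS2 and GINS3 were the 4 of 7 called lower with the trended and robust prior. DBF4, the regulatory subunit of CDC7, measured 2.94, 1.93 and 3.13 in control and 3.02, 3.52 and 4.36 in 7l arrays. GINS1 measured 2.82, 1.90 and 0.00 in control and 3.54, 3.45 and 0.00 in 7l arrays. Both lay close to background, their groups overlapped, and their positive changes of 0.97 ± 0.48 and 0.75 ± 1.25 did not pass.

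All 8 polymerase and primase genes had negative changes, from -0.61 to -0.09, and none was called (limma), with 4 of the 8 lower at an unadjusted p under 0.05. POLA1, the catalytic subunit of polymerase alpha, measured 7.89, 7.67 and 7.86 in control and 7.12, 7.15 and 7.33 in 7l arrays. The groups lay well apart, with a change of -0.61 ± 0.10 (SE; limma adjusted p = 0.0569). POLA1 was called when dim genes were left out (limma adjusted p = 0.0396). It was not called with every probe fitted on its own (limma adjusted p = 0.103). With its probes averaged the change was -0.18 (limma adjusted p = 0.893). A second, dim POLA1 probe had the opposite sign, at 0.24, with control values from 0.40 to 3.62. POLA2, the accessory subunit of the same enzyme, measured -0.09 ± 0.07, with an interval from -0.27 to 0.09 that does not meet that of POLA1, from -0.86 to -0.35. PRIM1, the primase, measured -0.23 ± 0.11 on its brighter probe and -0.31 on the other. For polymerase delta, POLD1 (catalytic) measured -0.35 ± 0.13, POLD3 -0.22 ± 0.09 and POLD2 -0.14 ± 0.12. For polymerase epsilon, POLE (catalytic) measured -0.30 ± 0.11 and POLE2 -0.25 ± 0.08. With the trended and robust prior POLA1, POLD1, POLE and POLE2 were called lower.

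**Figure D3:**
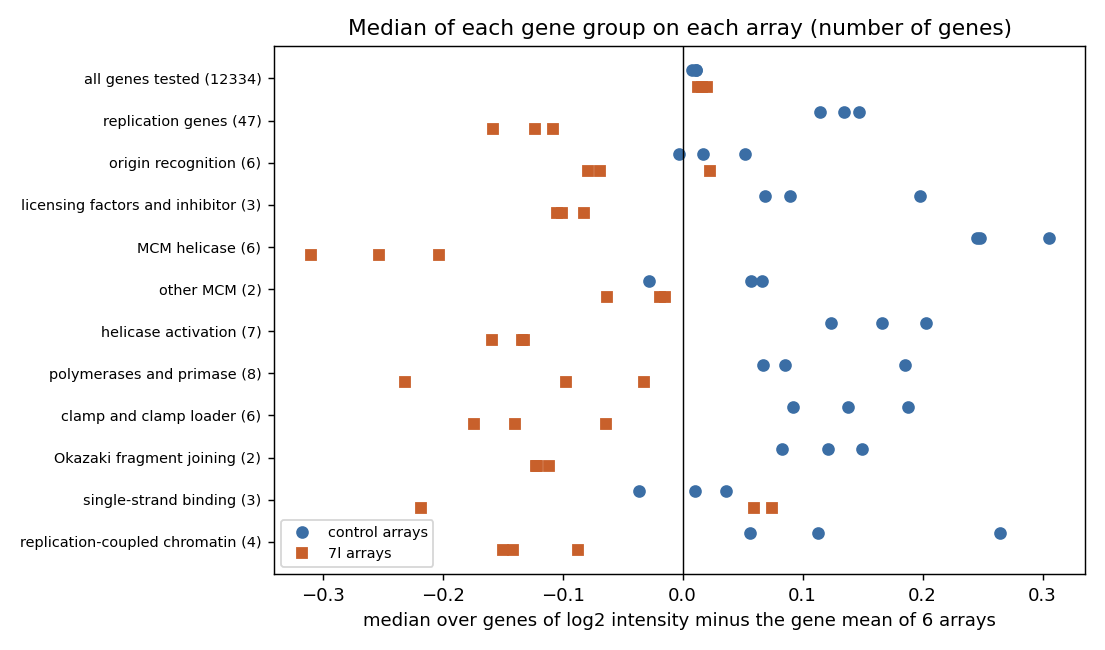
Median over the genes of each group of log2 intensity minus the mean of the gene over the 6 arrays, for each control (circle) and 7l (square) array; the number of genes is in parentheses. Over all 12334 genes tested the arrays lie between 0.01 and 0.02, whereas the 6 helicase genes separate most, at 0.25 to 0.31 in control and -0.31 to -0.20 in 7l arrays.

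None of the 5 clamp loader genes was called by limma, with 3 lower at an unadjusted p under 0.05. RFC2 measured 7.39, 7.28 and 7.34 in control and 6.86, 6.85 and 7.09 in 7l arrays (-0.40 ± 0.09, SE; limma adjusted p = 0.0978), with no overlap. RFC3 and RFC4 measured -0.25 ± 0.09 and -0.25 ± 0.08, also without overlap, and RFC1, the large subunit, -0.24 ± 0.13 with overlap. RFC5 measured 0.02 ± 0.07, and its interval from -0.17 to 0.20 does not meet that of PCNA, from -0.61 to -0.27. A second RFC5 probe near background measured 0.65, 2.55 and 0.00 in control and 2.90, 1.52 and 3.40 in 7l arrays, and with both probes averaged the change was 0.78 (limma adjusted p = 0.376). A second RFC2 probe measured 0.04 and a second RFC1 probe 0.15, both opposite in sign to the brighter probes. A further, dim RFC3 probe measured 0.53, whereas a second RFC3 probe (-0.16) and a second RFC4 probe (-0.21) had the sign of the brighter ones. A second PCNA probe measured -0.33, from 5.80 to 6.42 in control and 5.49 to 6.32 in 7l arrays, with overlap. The third PCNA probe was dim, between 0.00 and 3.38.

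None of the 2 genes of Okazaki fragment joining was called by limma, with 1 lower at an unadjusted p under 0.05. LIG1, the ligase that joins Okazaki fragments, measured 8.15, 8.19 and 8.22 in control and 7.90, 7.98 and 7.78 in 7l arrays, without overlap (-0.30 ± 0.08, SE; limma adjusted p = 0.133), and it was called with the trended and robust prior (adjusted p = 0.0126). FEN1, the flap nuclease, measured -0.17 ± 0.08 and -0.21 on its 2 probes, and did not pass. None of the 3 RPA genes, which encode the complex that coats single strands, was called by limma, with 0 at an unadjusted p under 0.05 and 0 with the trended and robust prior, and their arrays overlapped. RPA3 measured 10.30, 10.29 and 10.10 in control and 9.99, 10.27 and 9.87 in 7l arrays (-0.19 ± 0.13, SE; limma adjusted p = 0.486). Its 7l array 2 stood among the control arrays. RPA1 measured -0.08 ± 0.11 and RPA2 0.08 ± 0.07.

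The 4 genes grouped as replication-coupled chromatin all had 7l arrays below all control arrays, and none was called (limma, 3 lower at an unadjusted p under 0.05). CHAF1B, a subunit of chromatin assembly factor 1, measured 7.71, 7.80 and 7.78 in control and 7.30, 7.24 and 7.40 in 7l arrays. It came close to the threshold at -0.45 ± 0.08 (SE; limma adjusted p = 0.0570). CHAF1B passed when dim genes were left out (limma adjusted p = 0.0404) but not with every probe fitted on its own (0.113). CHAF1A, the large subunit, measured -0.34 ± 0.11. SLBP, which binds the stem-loop of histone mRNAs, measured -0.27 ± 0.09 on its brighter probe and -0.30 on the other. UHRF1, which brings DNA methylation maintenance to new DNA, measured -0.07 ± 0.07, with an interval from -0.24 to 0.10, a small shift although its arrays did not overlap.

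Over all probes of the 47 genes, 21 genes had more than 1 probe. Of their 27 further probes 22 lay above the filter on dim probes, and 15 of these had the sign of the brightest probe. Of 19 whose means were above background in both groups, 14 had that sign. The ORC6 probe used here measured 13.08 to 13.27 on all arrays and a second probe 7.15, 7.43 and 7.30 in control and 7.68, 7.58 and 7.55 in 7l arrays, with changes of 0.06 and 0.31. On the second probe all 7l arrays lay above all control arrays (unadjusted p = 0.0316, adjusted p = 0.267 by limma over all probes above the filter). MCM8 had a like gap between its probes, 12.04 to 12.20 and 6.74 to 7.09. What these bright probes measure besides their gene was not tested.

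**Figure D4:**
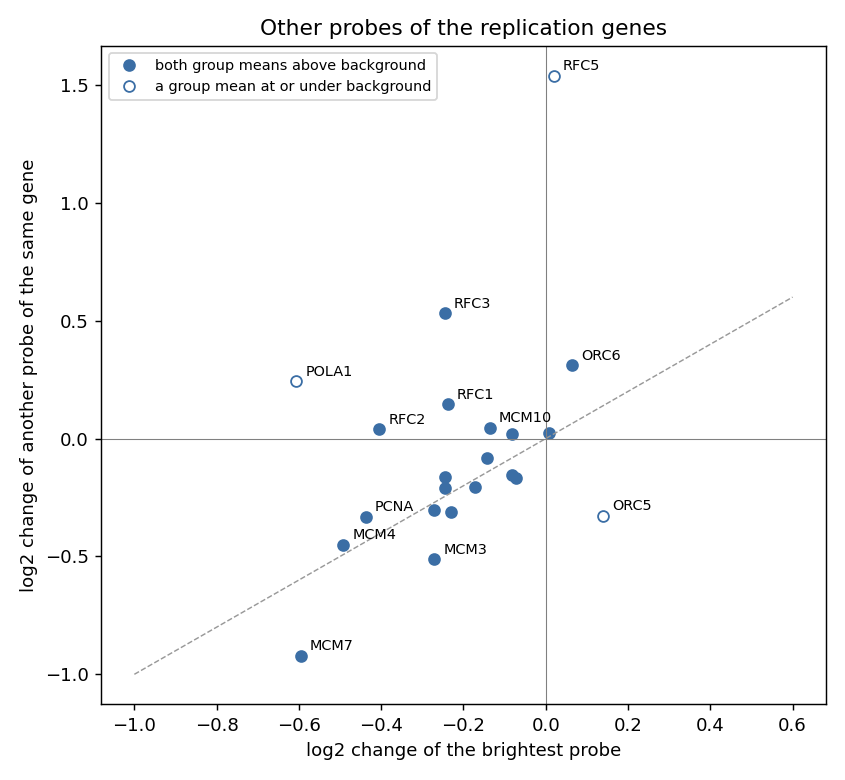
Log2 change of each further probe of a replication gene (y axis) against that of the brightest probe of the same gene (x axis), for 22 probes above the filter; the dashed line is equality, and open points have a group mean at or under background. MCM7, MCM4, PCNA and MCM3 lie below 0 on both axes, whereas the further probes of RFC1, RFC2, MCM10 and POLA1, and 1 of the 2 further probes each of RFC3 and RPA1, lie above 0 although the brightest probe lies below.

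Other genes of the same machinery were set beside the 47. Of 41 such genes (fork protection, checkpoint, histone chaperone, alternative loader and accessory polymerase genes), 39 were tested and none was called by limma. Of the 39, 11 were lower and 3 higher at an unadjusted p under 0.05, against 9.72% and 10.8% of all genes tested. Their median log2 change was -0.12, and 14 of the 39 (35.9%) had 7l arrays below all control arrays, against 13.8% of all genes tested. In 5 of the 39 they lay above all control arrays, against 15.1%. NASP, a histone chaperone, measured -0.50 ± 0.11 and CLSPN, encoding the checkpoint mediator claspin, -0.75 ± 0.17. DONSON, a fork protection factor, measured -0.39 ± 0.09, and ASF1A, a histone chaperone, 0.49 ± 0.12 in the other direction. An E2F core stood in 23.5% of the 34 promoter windows held for this list.

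The 8 tested genes of deoxynucleotide supply had a median change of -0.14 and none was called by limma. Of the 8, 2 were lower and 1 higher at an unadjusted p under 0.05, against 9.72% and 10.8% of all genes tested. RRM2B, a ribonucleotide reductase subunit induced by p53, measured 0.46 ± 0.09, whereas DUT, TYMS and TK1 measured -0.25 ± 0.08, -0.19 ± 0.07 and -0.22 ± 0.10. A further RRM2B probe measured 1.08. The further DUT probes differed in sign, at -0.34 and 0.57, the latter from a mean of 5.51 in control to 6.08 in 7l arrays. Of 17 tested E2F and G1/S regulators 1 fell, where 1.16% of all genes tested were called lower. This was CCNE1, encoding cyclin E1 (-0.61 ± 0.07, limma adjusted p = 0.0282), with a dim second probe at 0.24. With every probe fitted on its own CCNE1 was not called (limma adjusted p = 0.0631). The median of these regulators was -0.11. In 3 of the 17 (17.6%) the 7l arrays lay below all control arrays, near the 13.8% of all genes tested. In 2 of the 17 they lay above, against 15.1%. E2F8 measured -0.62 ± 0.13, E2F4 0.18 ± 0.07, E2F6 0.28 ± 0.12 and CCNA2, cyclin A2, 0.22 ± 0.09, and none of these passed.

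Of 18 genes of the mitosis list 7 rose and 0 fell, where 1.22% of all genes tested were called higher, with 15 positive and 3 negative changes and a median of 0.59. In 14 of the 18 the 7l arrays lay above all control arrays, which held for 15.1% of all genes. In 1, the kinase gene CDK1, they lay below, at 9.64, 9.57 and 9.70 in control and 9.41, 9.48 and 9.32 in 7l arrays (-0.23 ± 0.08, SE; limma adjusted p = 0.190). CDC20 and the kinase gene AURKA rose 1.77-fold and 1.76-fold, and BIRC5, CDCA8, CENPA, KIF20A and AURKB also rose. With every probe fitted on its own, of the 7 probes used here that of CDC20 kept its call (limma adjusted p = 0.0443) and the other 6 did not (0.0611 to 0.0980), while further probes of AURKA and BIRC5 passed (0.0473 and 0.0487). BUB1B, CCNB1, PLK1 and BUB1, the next by p, measured 0.70 ± 0.11, 0.66 ± 0.12, 0.76 ± 0.14 and 0.45 ± 0.09 and did not pass. The replication and mitosis lists were set beside each other as counts and medians, and their difference was not tested. Both lists were chosen with earlier results of these data known, so their contrast with all genes is no test either.

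**Figure D5:**
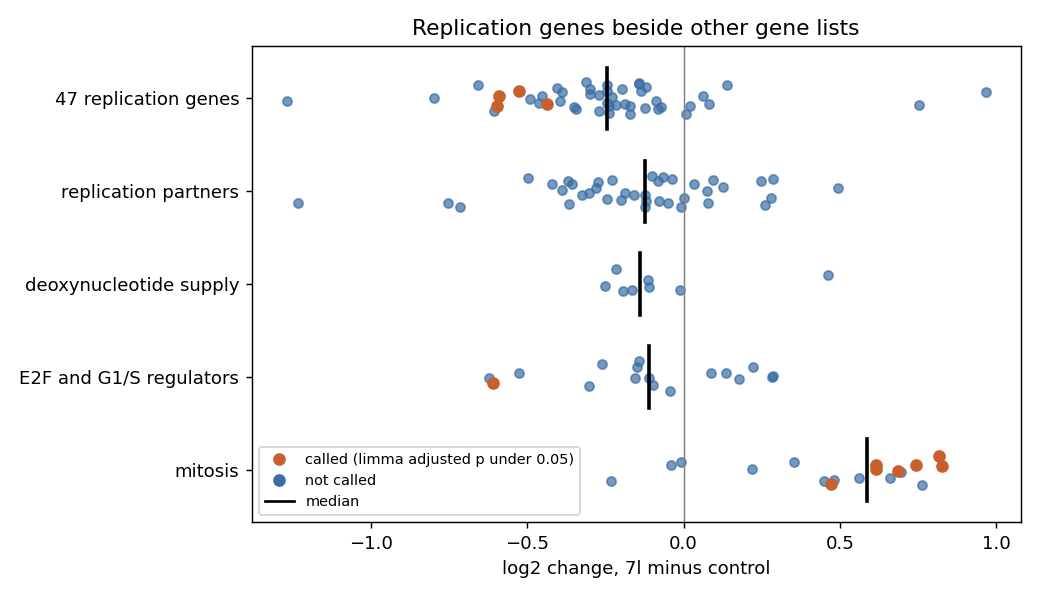
Log2 change (7l minus control) of every tested gene of the 47 replication genes and of 4 other lists (points; vertical jitter has no meaning), with the median of each list as a bar and called genes in orange. The replication genes centre at -0.25 and the mitosis genes at 0.59.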

How the data were processed

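Gene expression was measured on Illumina arrays in 3 control and 3 7l samples of KG1a cells, grouped and numbered by their titles. Per the labels' protocols, total RNA was made into biotinylated cRNA. The values the authors deposited are linear probe intensity, from 1 to 10984. How the authors corrected background and normalized the arrays is not given in the sources used. Sorted values of the 6 arrays were equal at 97.8% of ranks (relative tolerance 0.0001), the pattern of quantile normalization, so a global shift of all transcripts cannot be seen.

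A floor of 1 was applied before taking log2. Probes with 1 symbol in the platform annotation were used, and all 74 member probes have the same symbol in RefSeq. The brightest probe by mean stood for its gene, and genes above the median of all probe means (log2 1.76) were tested, 12334 in all. Models were fitted in R 4.3.3 with limma 3.58.1 (group as the only term, default prior, two-sided, 4 residual and 1.24 prior degrees of freedom), with Benjamini-Hochberg adjustment over all genes. Errors of changes are SE from this fit, and intervals are its 95% intervals. The background level (log2 2.46) was the 95th percentile of the means of 565 olfactory receptor, taste receptor and keratin-associated protein probes. The fit was tested on simulated data. It called 18%, 50%, 72% and 84% of genes given a log2 change of 0.5, 1, 2 and 3, with 0 of the wrong sign. A gene that was not called is thus not shown to be unchanged.

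Genes shown by array are the called ones and the one with the largest moderated t in each role. Of other lists, called genes and up to 4 more by p are named. The 47 genes, the lists and the rules were chosen with earlier results of these data known. Alternatives were other normalizations, filters, offsets, probe rules, priors, array weights, the replicate number as a block and each array left out. Python 3.11.15 and pandas 2.3.3 were used for motif searches.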

Additional observations from a re-analysis of the deposited data

How the results depend on the processing

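The direction of the group held throughout. Its median change stayed between -0.26 and -0.22 in all 17 alternatives, and in none of them was a member called higher. The number called was unstable. It was 22 lower with the trended and robust prior (889 genes higher and 813 lower in all), 9 with an offset of 16 (385 and 339), 7 with genes under background left out (251 and 229) and 2 with the probes of each gene averaged, MCM7 and PCNA losing their call. With values raised to background 253 genes were higher and 234 lower, and with no filter 232 higher. With every probe fitted on its own, 0 members were lower (90 probes higher and 44 lower), with 20 members lower at an unadjusted p under 0.05. With the replicate number as a block, limma called 0 genes higher, 0 lower and 0 members, with 16 members lower at an unadjusted p under 0.05. Same-numbered arrays did not deviate together (correlations from -0.02 to 0.00), so the numbers were not taken as pairs. Without any 1 array, 6 to 15 genes were higher, 0 to 18 lower and 0 members lower, at a median of -0.26 to -0.22. The cause of these shifts was not tested. With probes averaged, ORC5 measured -0.062, MCM8 -0.309, RFC5 0.779 and RFC3 0.040, and with array weights MCM8 measured -0.0030. Without any 1 array MCM8 ran from -0.034 to 0.043, RFC5 from -0.013 to 0.067, GINS1 from -0.035 to 1.92, CDC6 from -1.48 to 0.038 and RPA1 from -0.173 to 0.0055, all changes of sign in genes that did not pass. Cyclic loess and a second quantile normalization changed no call among the 47. Values near the floor limit what can be said of ORC4, CDC6, GINS1 and DBF4.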
